A study of Homo sapiens with 6 samples.

Results

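The annexin family was examined in a comparison of pLB with pLUM cells, as 10 listed genes (ANXA1, ANXA2, ANXA3, ANXA4, ANXA5, ANXA6, ANXA8, ANXA9, ANXA10 and ANXA11), by taking every gene spot of the arrays that carried one of these names. Counts refer to these genes and not to the whole family, since ANXA7, for example, is not listed. Of the 10 genes, 9 had at least 1 probe and ANXA8 had no spot under its name. The 9 genes were covered by 12 probes of 34127 on the array, and 10 of these probes, from 8 genes, were bright enough to be tested among 23105 probes and 17670 genes. The rule used the names alone, but the members were chosen with earlier results of these data known.

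RNA from triplicate sorts of each line was hybridized to 1-colour Agilent arrays, 3 for pLUM and 3 for pLB. Both lines descend from T47Dco, a human breast cancer line positive for estrogen and progesterone receptors, by way of xenografts in ovariectomized NSG mice. pLUM (pure luminal, ER+PR+CK5-) came from an estradiol (E) tumor and received 1 nM E over 72 h. By contrast, pLB (pure luminobasal, CK5+) came from a tumor under E plus progesterone and was kept estrogen-withdrawn (EWD). The effects of line and hormone cannot be told apart, because every array of a line had the same hormone condition. Each line was purified from 1 tumor by repeated sorting on CLD3 and CD49f, so the arrays of a line repeat 1 population, and p-values measure the spread between sorts. The CK5 fraction that was hybridized is not given in the sources used here.

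Annexins are proteins that bind acidic phospholipids of membranes, mostly in the presence of calcium. They share a conserved core of repeats that carries the calcium sites, and differ in an N-terminal tail through which several of them bind S100 proteins. They take part in membrane repair, vesicle traffic and exocytosis, and in epithelia some of them are known as markers of the basal or the luminal layer.

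The shared core can be read in the probes themselves, each 60 bases long. Those of ANXA2, ANXA3 and ANXA6 are shown because they fall on the same stretch of the repeat, and they are aligned without gaps over 48 bases. Capitals mark the 20 bases that are equal in all 3 probes.
ANXA2: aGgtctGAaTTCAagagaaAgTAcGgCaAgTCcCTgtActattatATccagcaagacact
ANXA3: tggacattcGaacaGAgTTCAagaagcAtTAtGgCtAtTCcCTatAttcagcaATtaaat
ANXA6: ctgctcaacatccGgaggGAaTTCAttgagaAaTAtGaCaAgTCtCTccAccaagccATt
By position in hg19, the ANXA2 probe lies between chr15:60639880-60641324 and the ANXA3 probe between chr4:79525495-79531210, and both spans exceed the probe length, so that these probes cross an intron. The ANXA6 probe lies at chr5:150483134-150483193. In this alignment 60.7% of the overlapping bases were equal between ANXA3 and ANXA6, and 55.8% between ANXA2 and ANXA3. Over all 101 pairs of annexin probes of different genes, the longest run of identical bases was 9. Cross-hybridization between members was not tested.

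Signals are given as log2 of the intensity relative to the 75th percentile of the array, so that 0 is the level below which 75% of gene spots lie. Because probes differ in brightness, levels are compared between lines and never between genes. Among the 8 tested genes, 6 were higher and 2 were lower in pLB when a change of 2-fold or more and a limma p under 0.05, adjusted by Benjamini-Hochberg over all tested probes, were required. Over all tested genes, 22.7% were higher and 23.0% were lower by the same rule. For each of the 8 genes the 3 pLB values lay entirely above or entirely below the 3 pLUM values, as they did for 69.1% of all tested genes. The median log2 difference was 1.36 for the annexins and 0.04 for all tested genes, and the median size of the difference regardless of direction was 1.79 and 0.92. As counted by probe, 8 annexin probes were higher and 2 were lower, against 21.9% and 23.7% of all probes. The 8 include a further ANXA2 probe that was well above background on no pLUM array. That probe was tested on the strength of its pLB arrays alone, and its increase is given below as a bound. When a probe had to be this bright on each of the 6 arrays, 7 annexin probes were higher and 2 were lower. Over all probes, this filter gave 3741 higher and 3899 lower.

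**Figure D1:**
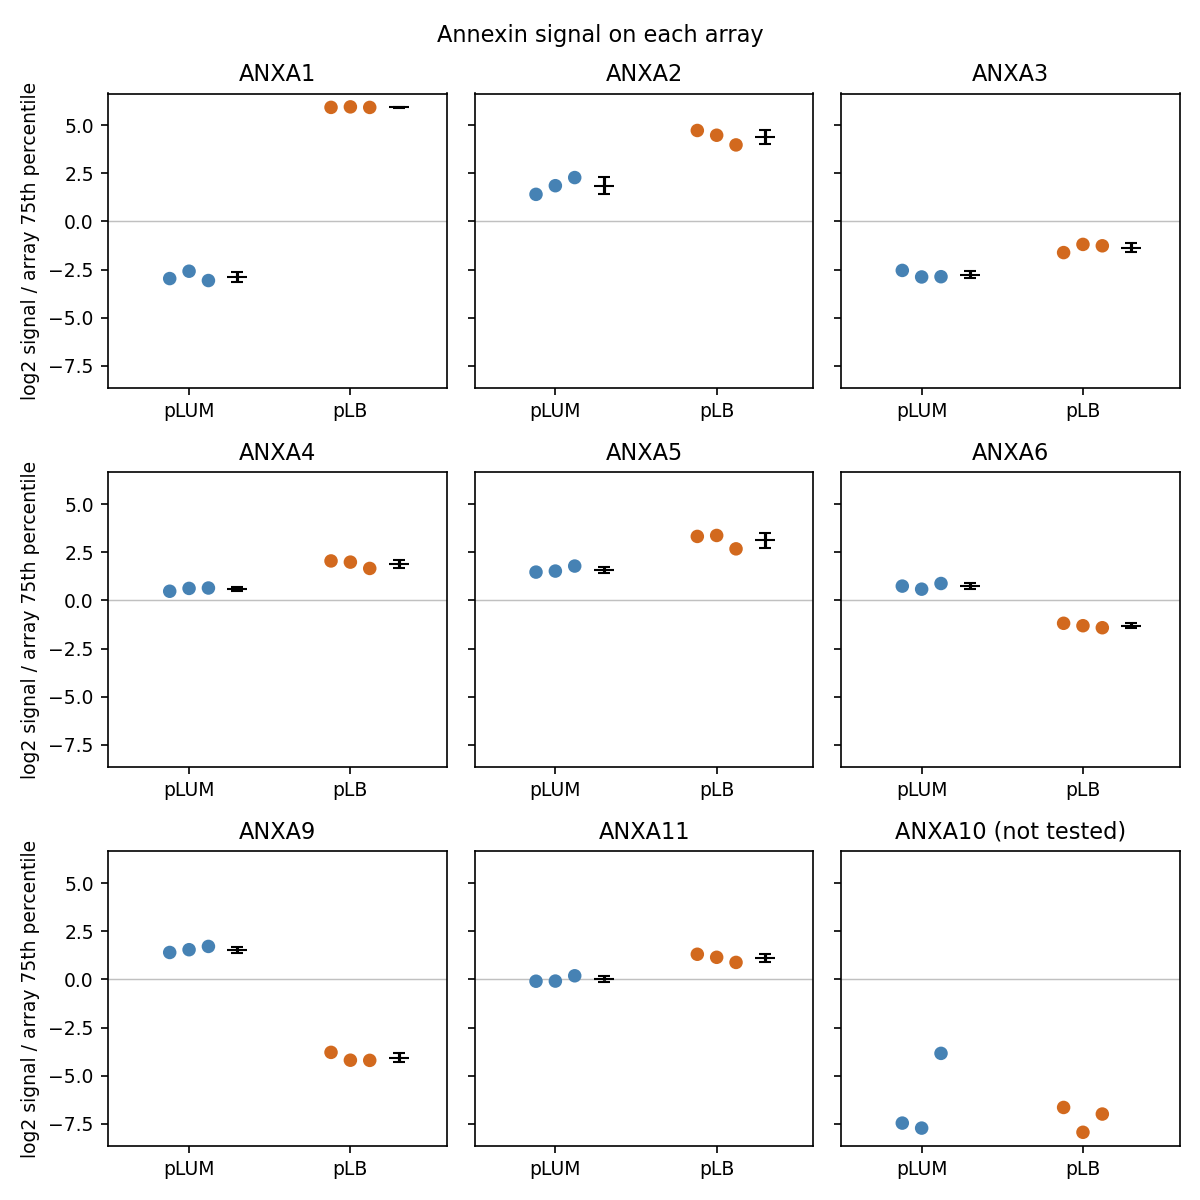
Signal of each annexin on each array, as log2 relative to the array's 75th percentile, with 3 pLUM arrays (blue) and 3 pLB arrays (orange) per gene; the bar at the right of each cluster is the mean with its SD. ANXA1 and ANXA9 show the widest gaps, in opposite directions, and ANXA10 was well above background only on pLUM replicate 3, so that it has no mean.

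ANXA1, a glucocorticoid-induced regulator of inflammation and of EGFR traffic, differed most between the lines. Its intensity was 0.128, 0.167 and 0.119 times the 75th percentile on pLUM replicates 1, 2 and 3. On pLB replicates 1, 2 and 3 it was 60.4, 61.5 and 60.3 times the 75th percentile. The pLB arrays were therefore almost equal, and all 6 arrays were well above background. On the log2 scale it was 8.80 ± 0.18 (SE, n = 3 per line), or 444-fold higher in pLB, with a limma adjusted p of 2.49e-07. With normexp background correction it was 218-fold (log2 difference 7.77). ANXA1 ranked 33 of 17670 tested genes from the most increased in pLB. Its probe lies at chr9:75785002-75785061 (hg19).

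The formyl peptide receptors FPR1, FPR2 and FPR3, through which extracellular annexin A1 acts, had no tested probe. FPR2 and FPR3 were well above background on no array, and FPR1 only on 1 pLUM array. The cytosolic phospholipases A2, the arachidonate-releasing enzymes that annexin A1 is known to inhibit, moved in both directions. Of 6 listed, 5 were on the array, 4 were tested, and 1 was higher and 3 were lower. PLA2G4A, the prototype of the group, was well above background on no pLUM array and read -0.95, -0.90 and -1.71 on pLB replicates 1 to 3, which makes it at least 18.3-fold higher in pLB. PLA2G4C was lower by a log2 difference of -3.32, and PLA2G4D at least 7.96-fold lower. PLA2G4F was 2.03-fold lower, a call that was lost with normexp background correction, with quantile or spike-in scaling, without pLUM replicate 3 and without pLB replicate 1 (log2 differences of -0.76 to -0.99). Its further probe, well above background on no pLB array, was also called lower, by at least 2.49-fold.

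ANXA2 was also higher in pLB, together with S100A10, an S100 protein that it binds. Annexin A2 forms a complex with S100A10 at the plasma membrane, where the complex is known to gather tissue plasminogen activator and plasminogen. The signal of ANXA2 was 1.40, 1.85 and 2.27 on pLUM replicates 1 to 3, and 4.72, 4.47 and 3.97 on pLB replicates 1 to 3. This is the widest spread of a tested annexin in pLUM, yet the groups stayed apart, and the log2 difference was 2.54 ± 0.29 (SE), or 5.82-fold (limma adjusted p = 0.000221). S100A10 read 2.50, 2.73 and 2.77 in pLUM and 5.77, 5.51 and 5.64 in pLB, a 7.86-fold increase (limma adjusted p = 7.85e-06).

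A further ANXA2 probe, at chr15:60639588-60639647 (hg19), was well above background on no pLUM array. In pLB it read -1.97, -3.51 and -3.99, which puts the increase at 4.66-fold or more with the deposited background correction. This bound did not hold with normexp correction, where the probe was 1.45-fold higher (log2 difference 0.54) and lost its call. Of the plasminogen system, PLAT, the tissue plasminogen activator itself, was well above background on no pLUM array and read 2.77, 2.72 and 2.64 in pLB, at least 272-fold higher. PLGRKT, a membrane receptor for plasminogen (named C9orf46 on the array), fell 3.60-fold, and PLG, plasminogen, was well above background on no array.

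The other S100 partners did not share 1 direction. S100A11, the partner of annexin A1, was 10.5-fold higher in pLB on both of its probes. S100A6 read 4.86, 5.03 and 4.98 in pLUM and 4.97, 4.92 and 4.74 in pLB, and the groups overlapped (log2 difference -0.08 ± 0.16, limma adjusted p = 0.689). S100A4, a partner of annexin A2, was 2.30-fold lower, and it lost its call with spike-in scaling (-0.94) and, just under 2-fold, with slide as a block.

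ANXA3, ANXA4, ANXA5 and ANXA11 were higher in pLB by smaller amounts, between 2.16- and 2.89-fold. ANXA5, which binds exposed phosphatidylserine and serves as a stain for dying cells, read 1.47, 1.52 and 1.78 in pLUM and 3.32, 3.37 and 2.67 in pLB. Its log2 difference was 1.53 ± 0.23 (SE; limma adjusted p = 0.000935), with pLB replicate 3 clearly below the other pLB arrays. ANXA3 read -2.54, -2.88 and -2.87 in pLUM and -1.62, -1.19 and -1.27 in pLB, as the mean of its 10 spots without those flagged as outliers. Its log2 difference of 1.41 ± 0.19 (limma adjusted p = 0.000563) shrank to 0.75 with normexp correction and then missed the threshold (limma adjusted p = 0.0539).

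ANXA4, an epithelial annexin of secretory membranes, read 0.48, 0.62 and 0.64 in pLUM and 2.05, 1.99 and 1.66 in pLB. The log2 difference was 1.32 ± 0.17 (SE; limma adjusted p = 0.000473), and its pLUM arrays were the closest of any tested annexin in that line. ANXA11, which has a long N-terminal tail and tethers RNA granules to lysosomes, read -0.09, -0.09 and 0.19 in pLUM and 1.30, 1.15 and 0.88 in pLB. Its log2 difference of 1.11 ± 0.18 (limma adjusted p = 0.00148) was the smallest of the tested annexins and only just above 2-fold. A further ANXA11 probe was 2.31-fold higher in pLB but lost its call with normexp correction (log2 difference 0.15), and the remaining one was well above background on no array.

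ANXA6 and ANXA9 ran the other way. ANXA6, whose core is duplicated and which scaffolds PRKCA and RASA1 to limit EGFR and Ras signalling, read 0.74, 0.58 and 0.88 in pLUM. In pLB it read -1.19, -1.31 and -1.42, and it was 4.11-fold lower there (log2 difference -2.04 ± 0.16, limma adjusted p = 4.22e-05). The replicates of both lines were tight and far apart. Its binding partners PRKCA and RASA1 were 3.82-fold and 2.28-fold higher in pLB. The call of PRKCA was lost with normexp correction (0.88), and that of RASA1 with slide as a block (0.85) and without pLB replicate 3 (0.96).

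ANXA9, an unusual annexin whose core has lost the usual calcium-binding residues, was the most decreased member. As the mean of 10 spots, it read 1.40, 1.54 and 1.71 on the pLUM arrays and -3.78, -4.19 and -4.20 on the pLB arrays. All 6 arrays were well above background. ANXA9 was 48.8-fold lower in pLB (log2 difference -5.61 ± 0.19, limma adjusted p = 9.22e-07) and ranked 112 of 17670 genes from the most decreased. With normexp correction the decrease was 18.0-fold (log2 difference -4.17). The probe lies at chr1:150967943-150968002 (hg19).

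**Figure D2:**
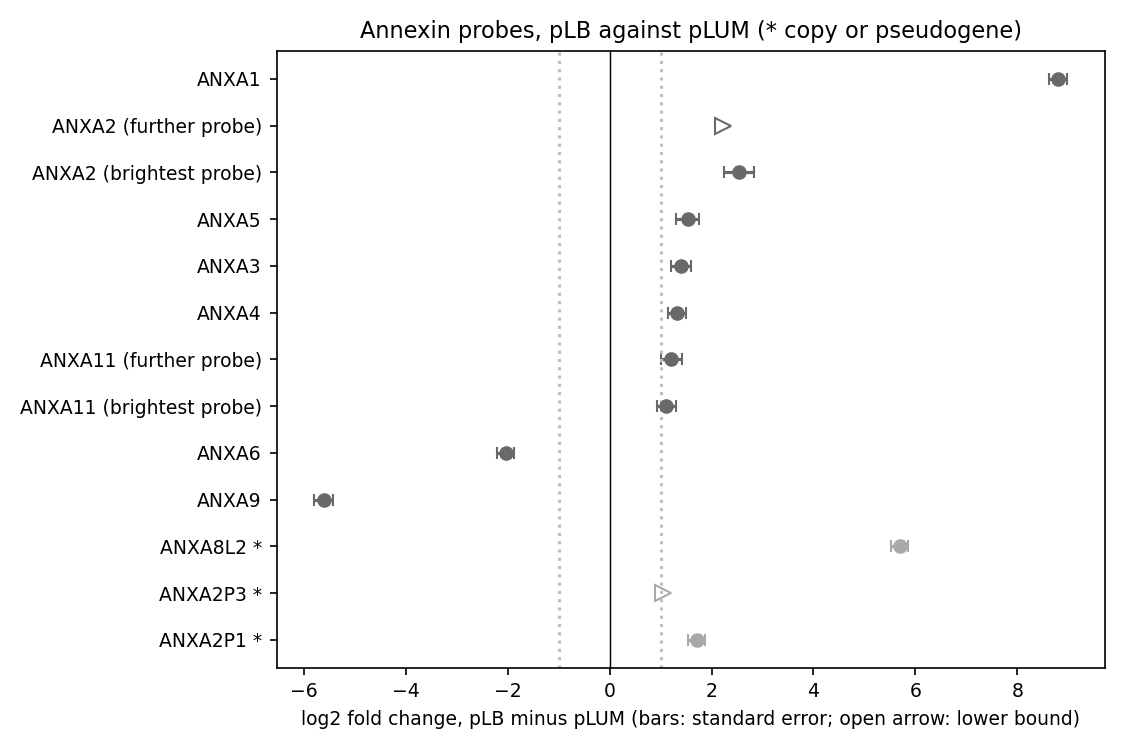
log2 fold change of pLB over pLUM for each tested annexin probe, and below them, marked with an asterisk, for copies and pseudogenes; points carry the standard error, open arrows are lower bounds for probes well above background on no pLUM array, and dotted lines mark 2-fold. Apart from ANXA6 and ANXA9, all probes lie to the right of 0.

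ANXA10, an annexin of gastric epithelium, was not tested. It read -3.84 on pLUM replicate 3, where it was well above background, and between -6.64 and -7.93 on the other arrays. A single array therefore carried its only detected signal.

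ANXA8, known from stratified and basal epithelia, had no spot of its own, but the probe named ANXA8L2 on the array, at chr10:47762959-47763018 (hg19), also lists a transcript that RefSeq assigns to ANXA8 and another that it assigns to ANXA8L1. These copies are nearly identical, and which of them gave the signal cannot be told apart. This probe lies outside the rule and was described because it was listed among the copies. It read 0.10, -0.03 and -0.24 in pLUM and 5.53, 5.60 and 5.77 in pLB. The difference was 51.7-fold (log2 5.69 ± 0.17, limma adjusted p = 6.31e-07), larger than that of any tested member except ANXA1.

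Of the ANXA2 pseudogenes, ANXA2P2 was not on the array. ANXA2P1 read -0.87, -0.87 and -0.66 in pLUM and 0.98, 1.05 and 0.69 in pLB, a 3.26-fold increase. Its part in the signal of ANXA2, or that of ANXA2 in its own, was not tested. ANXA2P3 was well above background on no pLUM array and at least 2.07-fold higher in pLB, but this direction did not hold with normexp correction, where the log2 difference was -0.015 (limma adjusted p = 0.979).

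Membrane repair, in which annexins A1, A2, A5 and A6 assemble at a torn membrane, was followed through 11 further genes, of which 9 were tested. EHD2, which stabilizes caveolae, was 24.5-fold higher in pLB, from -2.34, -2.47 and -2.19 in pLUM to 2.48, 1.97 and 2.38 in pLB. PDCD6IP, an ESCRT adaptor, was 5.46-fold lower on its brightest probe, but its further probe was not called. MYOF, AHNAK, EHD1, CAPN1, CAPN2, CHMP4B and PDCD6 did not pass, with log2 differences between -0.47 and 0.78, and DYSF and TRIM72 were well above background on no array. AHNAK passed with spike-in scaling (1.04), and its probe for another transcript was 3.16-fold lower. Of the remaining genes listed as partners, LAMP1, a lysosomal membrane protein, was 3.34-fold higher and SRI, which binds annexin A7, was 3.49-fold lower.

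Over all partner lists, 31 genes were listed, 30 were on the array and 23 were tested. Of these, 8 were higher and 7 were lower in pLB, with a median log2 difference of 0.30. These counts stand beside 22.7% and 23.0% of all tested genes. They include the 3 genes whose brightest probe is given as a bound (PLAT, PLA2G4A and PLA2G4D). Also included are the 4 whose calls were lost under an alternative (PLA2G4F, S100A4, PRKCA and RASA1).

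**Figure D3:**
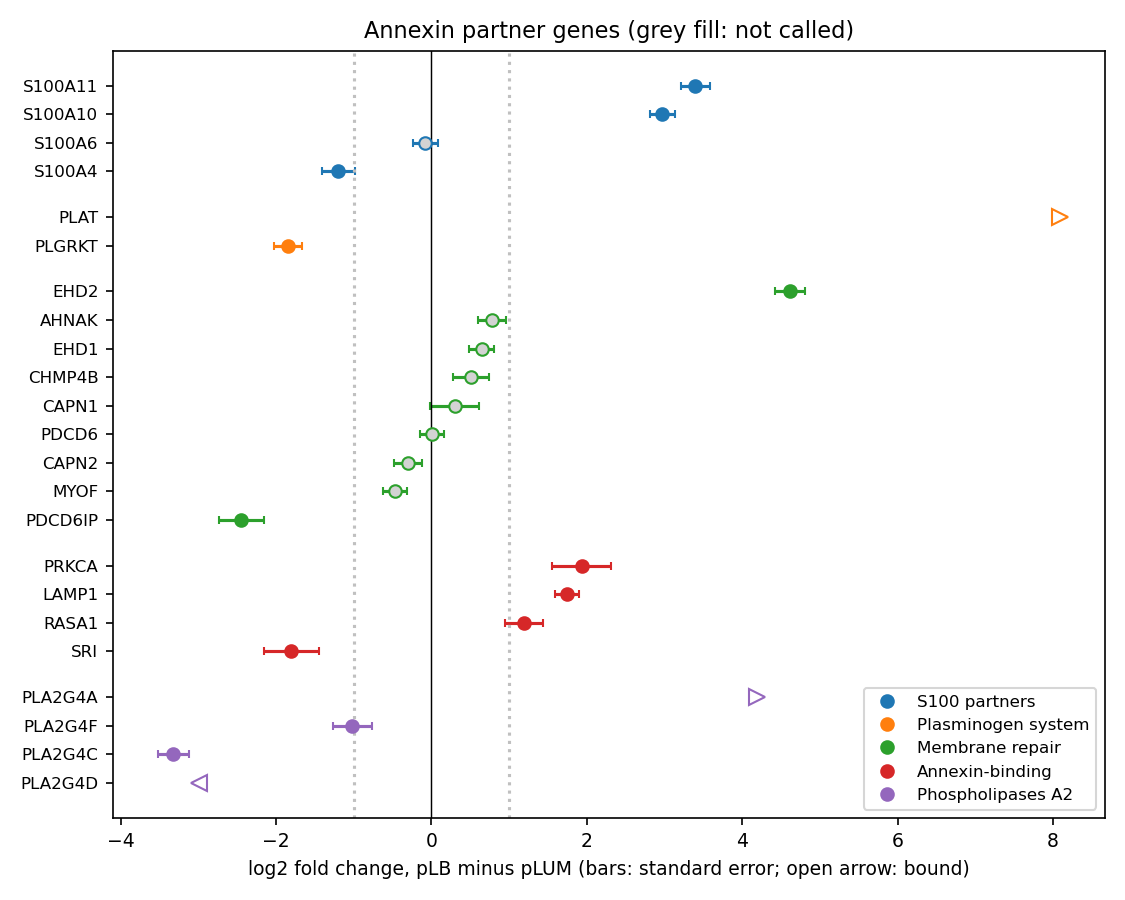
log2 fold change of pLB over pLUM for the 23 tested partner genes, grouped by list in colour; points carry the standard error, grey-filled points were not called, open arrows are bounds, and dotted lines mark 2-fold. S100A10, S100A11, PLAT, EHD2 and PLA2G4A lie far to the right, whereas most membrane repair genes lie between the dotted lines.

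Markers of the labelled cell types moved with these results, and their part in them was not tested. All 7 basal markers were higher in pLB, with KRT5, the gene of CK5, at least 1754-fold higher, and 8 of 9 luminal markers were lower, on the brightest probe of each gene. Of the 3 KRT8 probes, 2 were lower and 1 was higher. ITGA6 (CD49f) was 21.4-fold higher and CLDN3 (CLD3) 104-fold lower, but the lines were sorted on these, and per the methods cells were also sorted on CK5 before RNA was extracted. The summed level of the luminal list relative to the 75th percentile was 397 to 432 in pLUM and 102 to 109 in pLB, and that of the basal list was 1.06 to 1.31 and 87.3 to 123. In such a sum the brightest probes weigh most. KRT18, the luminal marker that was not called, had a mean log2 signal of 6.84 in pLUM and 6.23 in pLB. Of 7 fibroblast markers, COL1A2 was at least 11.5-fold higher, COL1A1 was not called, and COL3A1, DCN, LUM, PDGFRA and PDGFRB were well above background on no array. The summed fibroblast level was 0.772 to 0.971 in pLUM and 0.791 to 1.15 in pLB. None of 3 tested leukocyte markers was called on its brightest probe, although a further probe of PTPRC was lower, with sums of 0.181 to 0.331 and 0.205 to 0.375, and of 2 tested endothelial markers, VWF was at least 1.80-fold higher, with sums of 0.0659 to 0.101 and 0.0872 to 0.196. In RNA from sorted populations, fewer cells of a type and less RNA per cell cannot be told apart.

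The reference sequence before the start sites of the 2 annexins with the largest changes is shown because these genes moved in opposite directions. The 250 bases before each RefSeq start (GRCh38.p14, plus strand) are given in lower case, with motif matches in capitals. In ANXA1 the capitals mark TATAAA and CCAAT, on either strand, and in ANXA9 they mark the estrogen half-site GGTCA.
ANXA1, chr9:73151615-73151864: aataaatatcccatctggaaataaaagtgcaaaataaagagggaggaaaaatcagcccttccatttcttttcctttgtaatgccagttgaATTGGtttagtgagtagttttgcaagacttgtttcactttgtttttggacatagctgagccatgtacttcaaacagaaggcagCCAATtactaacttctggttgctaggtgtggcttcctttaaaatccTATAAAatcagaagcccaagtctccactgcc
ANXA9, chr1:150982042-150982291: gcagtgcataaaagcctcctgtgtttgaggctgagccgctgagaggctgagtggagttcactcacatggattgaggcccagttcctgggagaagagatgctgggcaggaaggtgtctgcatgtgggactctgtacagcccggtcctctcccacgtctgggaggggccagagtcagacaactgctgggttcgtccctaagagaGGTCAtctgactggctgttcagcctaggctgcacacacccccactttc
The ANXA1 window was 38.4% GC and held no CpG dinucleotide, with the TATAAA match 31 to 26 bases before the start. The ANXA9 window was 58.0% GC with 4 CpG, and its GGTCA match lay 48 to 44 bases before the start.

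Windows were given for 9 members, 13 windows in all, since ANXA4, ANXA6 and ANXA11 have several starts. Both strands were searched. TATAAA was found in 4 of the 13 windows and in 10.7% of 35114 windows of all genes. CCAAT was found in 3 windows and in 32.0% of all, TGANTCA (AP-1) in 1 window, that of ANXA2, and in 6.57% of all, and GGTCA in 6 windows and in 32.7% of all. The windows with GGTCA belonged to ANXA4 and ANXA11, which were higher in pLB, and to ANXA6 and ANXA9, which were lower. The full palindromic estrogen response element, which contains GGTCA, was found in none of the 13 and in 0.0399% of all. A match is a description of the letters and not a bound site. The median CpG count was 18 in the annexin windows and 11 in all windows, where the quartiles were 3 and 23.

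The 2 members that changed most had 0 and 4 CpG, and the 4 of ANXA9 lies between the quartiles of all windows. ANXA11, with the smallest change, had a window with 5. Apart from ANXA1 and ANXA9 only the untested ANXA10, with 0, had fewer than 5 CpG, whereas the windows of ANXA2, ANXA3, ANXA4 and ANXA5 held 18 to 36. ANXA6 had windows with 10 and 19, and the other ANXA11 windows held 9 and 22. With 8 tested genes this is a description, and promoter methylation was not measured here.

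**Figure D4:**
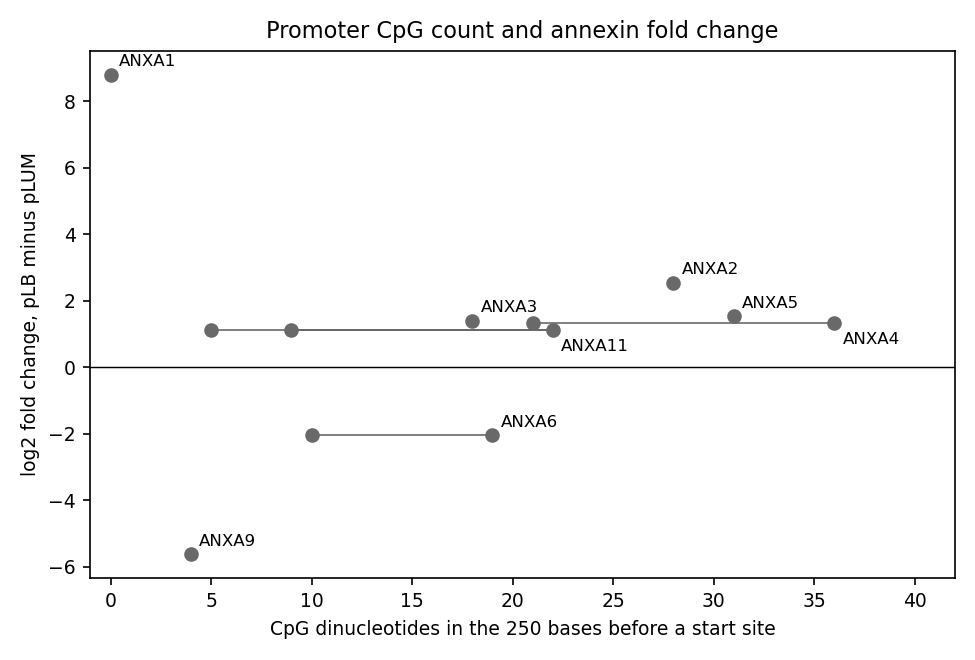
log2 fold change of pLB over pLUM for each tested annexin against the number of CpG dinucleotides in the 250 bases before its start; points joined by a line are several starts of 1 gene. ANXA1 (0 CpG) and ANXA9 (4 CpG) lie at the left with the largest changes, one up and one down, and the genes with 18 CpG or more in every window lie between 1.32 and 2.54.

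Slide and line were partly mixed, since the 3 pLUM arrays and pLB replicate 1 lay on slide 1 and pLB replicates 2 and 3 on slide 2. With slide as a block, the estimate rests on pLB replicate 1 alone against the 3 pLUM arrays and equals that within slide 1, where the lone array was taken to vary as the others did. All 8 tested annexins kept their calls. The log2 differences were then 8.79 for ANXA1, 2.87 for ANXA2, 1.15 for ANXA3, 1.47 for ANXA4, 1.73 for ANXA5, 1.30 for ANXA11, -1.92 for ANXA6 and -5.33 for ANXA9. On pLB replicate 3, which had the lowest 75th percentile of the 6 arrays (449 against 474 to 869), 7 of the 8 genes had their lowest pLB value. In pLUM, replicate 1 was lowest most often, for 5 of the 8 genes. The share of all tested genes that were lowest on these arrays was not counted. Leaving out any 1 array changed no annexin call.

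**Figure D5:**
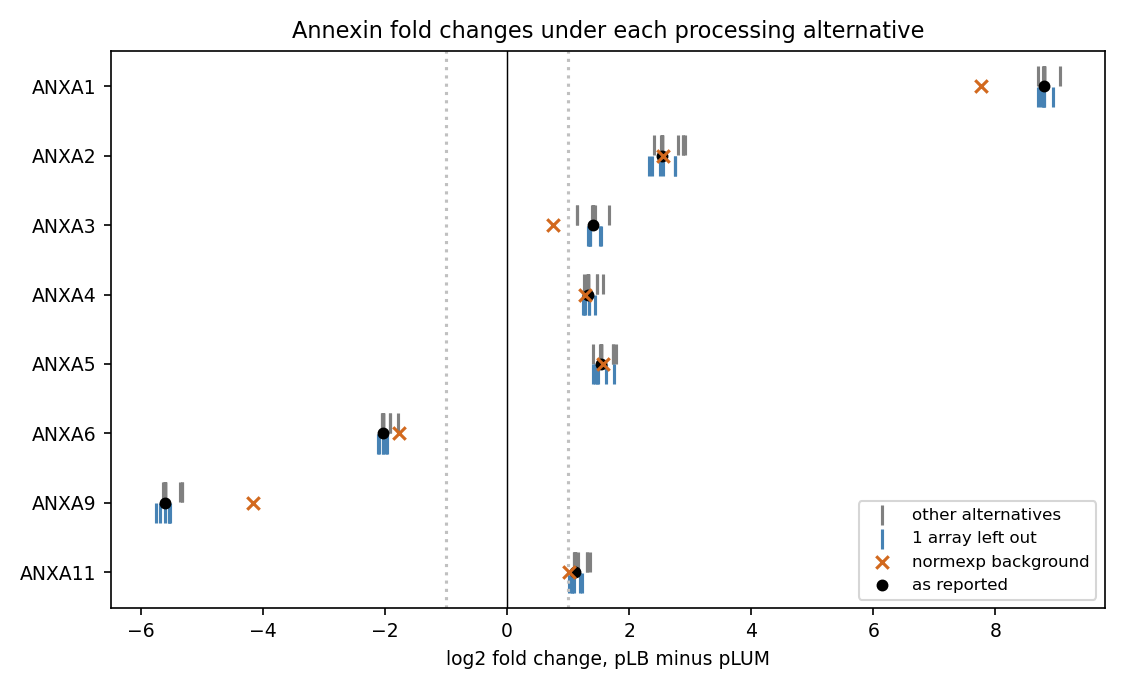
log2 fold change of pLB over pLUM for each tested annexin as reported (black points), with normexp background correction (crosses), with 1 array left out (blue ticks) and under the other alternatives (grey ticks); dotted lines mark 2-fold. The crosses lie farthest from the black points for ANXA1, ANXA3 and ANXA9, and ANXA3 is the gene that falls inside the dotted lines.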

How the data were processed

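The authors deposited 1 Feature Extraction 10.10.1.1 file per array (hg19 annotation), whose processed intensity is linear, corrected for background and not normalized between arrays. From the deposited intensity, log2 values relative to each array's 75th percentile (449 to 869) were computed, without control and outlier-flagged spots (2 annexin spots), and spots of a probe were averaged. Between 21285 and 22775 probes per array were well above background, and 0 gene spots were saturated. Probes that passed this on 3 or more of the 6 arrays were fitted with limma 3.58.1 in R 4.3.3 (lmFit, eBayes), which was tested on simulated data. Calls required 2-fold and a Benjamini-Hochberg adjusted p under 0.05 over all tested probes. For each gene, the probe that was brightest on average stood for it. Where a line had no array well above background, the fold is the bright mean over the mean, per dim array, of the higher of its lowest detected signal and the probe's own. These bounds were computed with the deposited background correction. Precision is limited by having 3 arrays per line. Promoter sequences are RefSeq's (GRCh38.p14); no positions were converted.

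All listed members are named, whatever their values, with every called partner or copy. Members and lists were chosen with earlier results of these data known. Same-numbered arrays did not deviate together (r = -0.27, -0.09 and -0.22), so numbers were not used as pairs. Alternatives were other background corrections, scalings, filters, probe rules, thresholds and tests, slide and replicate blocks, and leaving out each array.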

Additional observations from a re-analysis of the deposited data

How the results depend on the processing

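With each array left out in turn, 6 annexin genes were higher and 2 lower in pLB (8 and 2 by probe). With normexp background correction, 5 annexin genes instead of 6 and 5 probes instead of 8 were called higher, since ANXA3 (log2 difference 0.75) and the further probes of ANXA2 and ANXA11 lost their calls, and ANXA2P3 read -0.015. The same correction lowered ANXA1 to 218-fold and ANXA9 to 18.0-fold, and over all probes it called 3004 higher and 4033 lower against 5054 and 5476 as reported, with 42.7% of calls higher and the median gene shifted by -0.24. Under spike-in scaling the median gene shifted by 0.26 on the log2 scale and the share of calls that were higher went from 48.0% to 58.3%; every tested annexin kept its call and direction under it. With the replicate block, 6 annexin genes were called higher and 2 lower, and the block changed no other call of a member; as the numbers did not pair the arrays, this was not taken as a paired test. Partner genes called higher were 7 to 8, and lower 6 to 7, without each array. Probes well above background on no pLUM array have only a bound. The normexp correction added an offset of 50 to every intensity, where the deposited 75th percentile of an array was 449 to 869. An added constant narrows the fold of a dim probe by arithmetic. How much of the changes with normexp came from this offset was not tested.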
